A study of Mus musculus with 8 samples.

Results

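Perineuronal nets and the diffuse matrix of the brain were examined through 10 genes, namely the lecticans Acan, Bcan, Ncan and Vcan, the link proteins Hapln1 and Hapln4, the tenascins Tnr and Tnc, and the matrix proteins Npnt and Abi3bp. They were taken by symbol from the authors' table of gene symbols, out of 23983 genes, and each was measured by 1 transcript cluster, a set of probes summarised along the gene. The arrays came from prefrontal cortex (cingulate cortex) of male mice aged 12 weeks, 4 labelled Mll1 Ko and 4 labelled wild-type, all unstimulated and housed singly for a week before dissection. The series title places the loss of Mll1 in neurons, and the labels name no allele, promoter or Cre line. Values are RMA log2 signals, on which a difference of 1 is a doubling, and every difference is given as Mll1 KO minus wild-type (WT).

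A perineuronal net is a lattice of extracellular matrix around the cell body and proximal dendrites of certain neurons, in cortex mostly fast-spiking interneurons that make parvalbumin. Lecticans are chondroitin sulfate proteoglycans that bind the glycan hyaluronan at one end, where link proteins hold them, and tenascin-R at the other, which ties several lecticans together. Nets form late in postnatal development and are known for limiting the plasticity of the circuits they enclose. The arrays were made to describe transcription in the Mll1 mutant prefrontal cortex, and Mll1, now Kmt2a, is a methyltransferase for lysine 4 of histone H3 that binds CpG-rich DNA.

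The targeted gene gave log2 signals of 10.42, 10.38, 10.29 and 10.30 on the arrays labelled Mll1 KO, against 9.94, 10.13, 10.12 and 10.06 on the WT arrays. Kmt2a was therefore higher where a loss is labelled, by 0.285 ± 0.057 (SE; limma, adjusted p = 0.0142). Without WT replicates 1 and 4 Kmt2a differed by 0.22, which missed the threshold (limma, adjusted p = 0.0601). Its probes can lie outside the deleted part, so the signal does not check the labels, and each direction below rests on them. WT replicates 1 and 4 stood apart from the other arrays, the first at 20.33 on the first principal component (other WT arrays 7.52 to 8.19, Mll1 KO arrays -13.62 to -9.19) and the second at -19.24 on the second component. The brightest excitatory neuron markers, Camk2a at 13.265 and 13.28 and Slc17a7 at 12.65 and 12.68 (means of Mll1 KO and of WT arrays), were bright in both groups. In whole tissue, fewer cells of a type and less RNA per cell cannot be told apart.

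Most of the matrix genes did not pass the test, and those that did moved in both directions. Npnt and Abi3bp were lower on the arrays labelled Mll1 KO, Tnr was higher, and 7 genes did not pass (limma, Benjamini-Hochberg adjusted p under 0.05 over all genes). Of all genes, 5.15% were called higher and 5.69% lower, or 10.8% in either direction, so 3 calls among 10 chosen genes are to be read against about 1 call in 10 genes of any kind. The median difference of the matrix genes was -0.0675, against -0.0325 over all genes, and 7 of them had a difference below 0, against 58.9% of all genes. The arrays of the groups did not overlap for 1 higher gene (Tnr) and 2 lower ones (Npnt and Abi3bp), where 9.47% of all genes lay higher and 10.1% lower without overlap, or 19.5% either way. After quantile normalization between arrays none rose and 2 fell, Npnt and Hapln4, where 2.86% of all genes were called higher and 1.58% lower, or 4.44% in either direction.

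**Figure D1:**
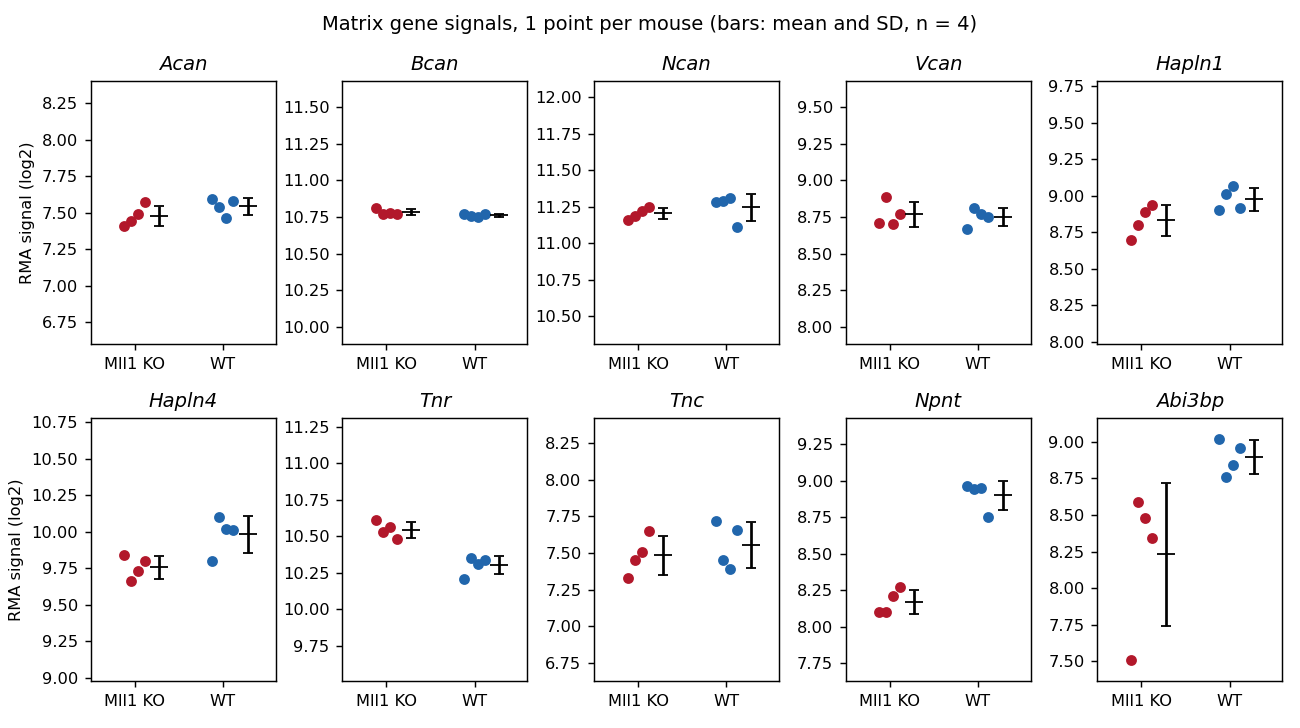
Log2 RMA signal (vertical axis) of each matrix gene on every array, 1 point per mouse, with Mll1 KO (red) left of WT (blue) and the mean and SD of 4 beside the points; each panel spans the same range of log2 units but is centred on its own gene. Npnt and Abi3bp lie lower and Tnr higher in Mll1 KO without overlap, with Mll1 KO replicate 1 at 7.51 for Abi3bp.

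Npnt, or nephronectin, is a secreted matrix protein whose RGD sequence binds integrin alpha8 beta1. Its log2 signal was 8.10, 8.10, 8.21 and 8.27 on the arrays labelled Mll1 KO, against 8.96, 8.94, 8.95 and 8.75 on the WT arrays. The groups did not overlap, and the gap between the highest Mll1 KO and the lowest WT mouse exceeded the spread within either group. The group means were 8.17 ± 0.08 in Mll1 KO and 8.90 ± 0.10 in WT (SD, n = 4 each). Npnt fell by 0.73 ± 0.06 log2 (SE; 95% interval -0.87 to -0.59; limma, adjusted p = 0.000209), which leaves the signal in Mll1 KO at 0.603 of that in WT. It ranked 10 by p among all genes, and the exact permutation p of 0.0286 is the smallest that 4 against 4 mice allow. The call was kept without any 1 array (-0.78 to -0.71) and without WT replicates 1 and 4 (-0.775; limma, adjusted p = 0.00274). In the authors' deposited table the WT over knockout fold was 1.73 with an FDR p-value of 0.0119.

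Abi3bp encodes a secreted protein of the matrix named for its binding to the adaptor Abi3. It gave 7.51, 8.59, 8.48 and 8.34 on the arrays labelled Mll1 KO and 9.02, 8.76, 8.84 and 8.96 on the WT arrays. Each Mll1 KO mouse lay below each WT mouse, but replicate 1 lay well below the other 3, and the SD was 0.491 in Mll1 KO against 0.117 in WT. Abi3bp fell by 0.665 ± 0.186 log2 (SE; limma, adjusted p = 0.0431). Without Mll1 KO replicate 1 the difference was -0.425 (limma, adjusted p = 0.0175), so the size rests on that mouse and the direction does not. The call ended without any 1 of 6 other arrays (WT replicates 1 to 4, Mll1 KO replicates 3 and 4; limma, adjusted p 0.0615 to 0.11), without WT replicates 1 and 4 together (-0.57; limma, adjusted p = 0.214) and after quantile normalization (-0.658; limma, adjusted p = 0.0741). The authors' deposited table, whose bi-weight means give a distant array less weight, had 8.46 in knockout and 8.90 in WT and an FDR p-value of 0.158.

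Of 10 listed markers of excitatory neurons 5 fell and none rose on the same arrays, where 5.69% of all genes were called lower. Among the falls were the transcription factor genes Tbr1 (-0.455 ± 0.06 log2, SE) and Emx1 (-0.24 ± 0.06), with Rorb (-0.31 ± 0.08) and Neurod2 (-0.19 ± 0.06) besides. The list median was -0.22. The linear signals of the 10 markers summed to between 25079 and 26507 on the arrays labelled Mll1 KO and between 26901 and 28706 on the WT arrays. Camk2a and Slc17a7, neither of which passed, weigh most in such a sum. Between 2 (without Mll1 KO replicate 1, Mll1 KO replicate 2 or WT replicate 3) and 5 markers of the list passed as falls with 1 array left out. Their part in the differences of Npnt, Abi3bp and Hapln4 was not tested. The brightest markers of the list, Slc17a7 (-0.03 ± 0.05) and Camk2a (-0.02 ± 0.04), did not pass, nor did Nrgn (-0.05 ± 0.05), Cux2 (-0.205 ± 0.067) and Neurod6 (-0.26 ± 0.08). Cux2 passed after quantile normalization (-0.26; limma, adjusted p = 0.0296) and without WT replicate 1 (-0.275; limma, adjusted p = 0.014). Neurod6 passed without Mll1 KO replicate 3 (-0.33; limma, adjusted p = 0.0455). After quantile normalization 6 markers of the list fell, where 1.58% of all genes were called lower.

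Tnr, or tenascin-R, is the glycoprotein that cross-links lecticans in nets and is made by oligodendrocyte lineage cells and some neurons. Its log2 signal was 10.61, 10.53, 10.56 and 10.48 on the arrays labelled Mll1 KO, against 10.21, 10.35, 10.31 and 10.34 on the WT arrays. The groups did not overlap, and WT replicate 1 was the lowest array. The means were 10.545 ± 0.054 in Mll1 KO and 10.30 ± 0.06 in WT (SD, n = 4 each). Tnr rose by 0.24 ± 0.05 log2 (SE; 95% interval 0.13 to 0.35; limma, adjusted p = 0.0181), a signal ratio of 1.18. The call ended without Mll1 KO replicate 1 (0.22; limma, adjusted p = 0.0506) or Mll1 KO replicate 3 (0.24; limma, adjusted p = 0.0584), without WT replicates 1 and 4 together (0.215; limma, adjusted p = 0.0598) and after quantile normalization (0.18; limma, adjusted p = 0.0519). The authors' deposited table gave a WT over knockout fold of -1.16, its sign for a higher knockout, with an FDR p-value of 0.0409.

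Oligodendrocyte precursors are one source of Tnr, and of 10 listed markers of these cells 1 rose and none fell, where 5.15% of all genes were called higher. The marker that rose was Pdgfra, the receptor for platelet-derived growth factor (0.22 ± 0.04 log2, SE; limma, adjusted p = 0.0143), and it did not pass after quantile normalization (0.17; limma, adjusted p = 0.0511). The brightest ones, Cacng4 (0.13 ± 0.05) and Lhfpl3 (0.135 ± 0.048), did not pass, although their groups did not overlap. Sox10, named after its values were seen, did not overlap in the other direction (-0.12 ± 0.05) and did not pass either, nor did Neu4 (-0.10 ± 0.06) and Matn4 (-0.085 ± 0.052). The summed linear signal of the list was 6721 to 7042 on the arrays labelled Mll1 KO and 6364 to 6553 on the WT arrays. Bright genes weigh most in such a sum, and genes of any kind about as bright as Cacng4 and Lhfpl3 had a median difference of 0.0675. After quantile normalization no marker of the list was called, and the list median was 0.029. The part of these cells in the rise of Tnr was not tested.

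Tnc, or tenascin-C, is a glial matrix protein most abundant in the developing brain. It gave 7.33, 7.45, 7.51 and 7.65 on the arrays labelled Mll1 KO and 7.72, 7.45, 7.39 and 7.66 on the WT arrays. The groups overlapped over most of their range, and the difference of -0.07 ± 0.09 log2 (SE; 95% interval -0.26 to 0.12) did not pass (limma, adjusted p = 0.58). Whether the tenascins differed from each other in their change was examined through the within-array difference of Tnr and Tnc. It averaged 3.06 ± 0.18 in Mll1 KO and 2.75 ± 0.20 in WT (SD, n = 4 each), which is no comparison of the amounts of the 2 transcripts, since probe sets differ in response. The change in that difference, 0.31 ± 0.14 (SE), had an exact permutation p of 0.0857 and did not pass.

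Neither link protein passed the test in the deposited values, and both had a lower mean in Mll1 KO. Hapln4, which is found at the net around inhibitory synapses and stabilises brevican there, gave 9.84, 9.66, 9.73 and 9.80 on the arrays labelled Mll1 KO, against 9.80, 10.10, 10.02 and 10.01 on the WT arrays. All WT arrays but replicate 1 lay above all Mll1 KO arrays. The means were 9.76 ± 0.08 in Mll1 KO and 9.98 ± 0.13 in WT (SD, n = 4 each), and the difference of -0.225 ± 0.068 log2 (SE; 95% interval -0.37 to -0.08) narrowly missed the threshold (limma, adjusted p = 0.0541). It passed after quantile normalization (-0.28; limma, adjusted p = 0.0287), without WT replicate 1 (-0.29; limma, adjusted p = 0.0236) and without WT replicates 1 and 4 (-0.30; limma, adjusted p = 0.0401).

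Hapln1, the link protein on which condensed nets depend in mice, gave 8.70, 8.80, 8.89 and 8.94 on the arrays labelled Mll1 KO, against 8.90, 9.01, 9.07 and 8.92 on the WT arrays. The groups overlapped between 8.90 and 8.94. Its difference of -0.14 ± 0.06 log2 (SE; 95% interval -0.28 to -0.0051, not adjusted for the number of genes) did not pass (limma, adjusted p = 0.14). It did not pass in any of 19 alternatives, over which the difference ran from -0.21 to -0.08.

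The lecticans as a group showed no call. The intervals below are for the difference in array signal and need not bound a change in transcript. Aggrecan (Acan), the large lectican of mature nets, gave 7.41, 7.44, 7.49 and 7.57 on the arrays labelled Mll1 KO and 7.59, 7.54, 7.46 and 7.58 on the WT arrays. Its difference was -0.065 ± 0.053 log2 (SE; 95% interval -0.18 to 0.05; limma, adjusted p = 0.397). Brevican (Bcan), made by astrocytes and neurons, had the narrowest spread of the 10 genes, with 10.81, 10.77, 10.78 and 10.77 on the arrays labelled Mll1 KO and 10.77, 10.76, 10.75 and 10.77 on the WT arrays. All of its arrays lay between 10.75 and 10.81, and the difference was 0.02 ± 0.04 log2 (SE; 95% interval -0.07 to 0.11; limma, adjusted p = 0.759).

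Neurocan (Ncan), a lectican that falls in amount as the brain matures, gave 11.16, 11.19, 11.22 and 11.25 on the arrays labelled Mll1 KO and 11.28, 11.29, 11.31 and 11.11 on the WT arrays. WT replicate 4 was the lowest array of all and the other 3 WT arrays lay above every Mll1 KO array, so the groups overlapped through that array alone. The difference was -0.04 ± 0.05 log2 (SE; 95% interval -0.16 to 0.08; limma, adjusted p = 0.602), and without WT replicate 4 it was -0.09 (limma, adjusted p = 0.187). Versican (Vcan), the lectican of precursors and of nodes of Ranvier, gave 8.71, 8.89, 8.70 and 8.77 on the arrays labelled Mll1 KO and 8.67, 8.81, 8.77 and 8.75 on the WT arrays, with a difference of 0.02 ± 0.06 log2 (SE; 95% interval -0.10 to 0.14; limma, adjusted p = 0.846). Acan, Bcan and Tnc had the opposite sign after quantile normalization, none of them past the threshold, so no direction is given for them.

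Genes of the same role were also set against each other within each array. There were 9 such pairs, 6 among the lecticans and 1 each among link proteins, tenascins and the remaining genes. None passed after adjustment over the 9 pairs (exact permutation test, two-sided, adjusted p 0.617 to 1), and a single pair at the smallest possible p would reach only 0.257. Among the lecticans the change in the within-array difference ran from -0.085 for Acan minus Bcan to 0.0625 for Bcan minus Ncan. It was 0.08 ± 0.09 (SE) for Hapln1 minus Hapln4 and -0.065 ± 0.249 for Npnt minus Abi3bp.

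**Figure D2:**
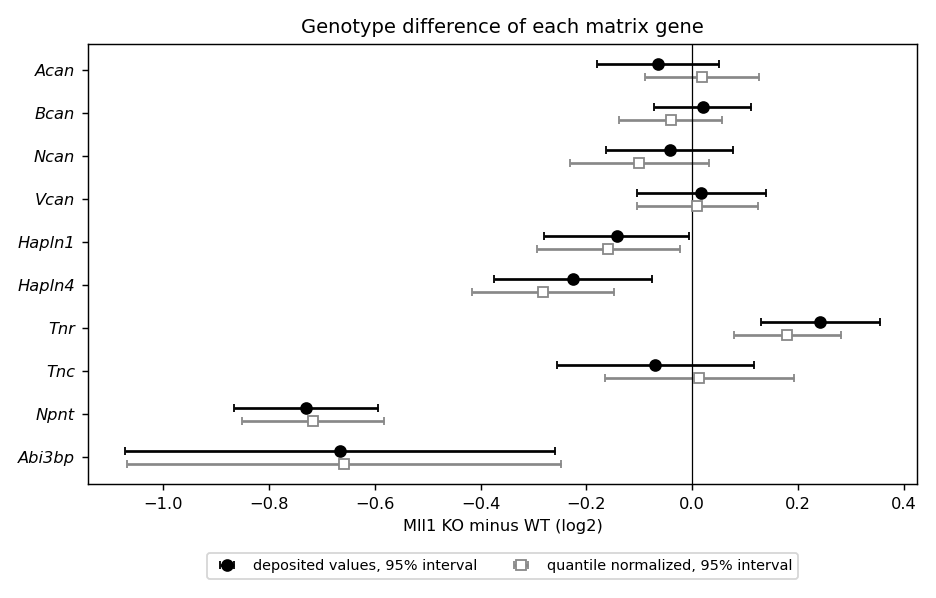
Difference between Mll1 KO and WT (log2, horizontal axis) of each matrix gene, with its 95% interval from limma, in the deposited values (black) and after quantile normalization (grey squares). The intervals of Npnt, Abi3bp, Hapln4, Hapln1 and Tnr lie to one side of 0 in both, before any adjustment for the number of genes.

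**Figure D3:**
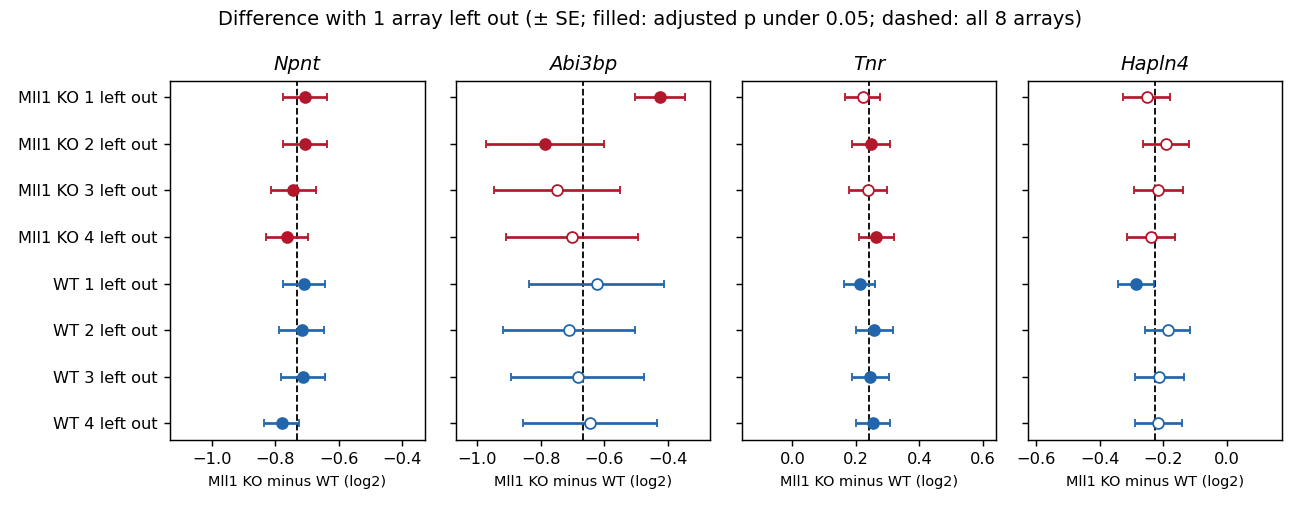
Difference between Mll1 KO and WT (log2, horizontal axis, ± SE) of Npnt, Abi3bp, Tnr and Hapln4 with each array left out in turn, Mll1 KO arrays (red) above WT arrays (blue); filled points pass the threshold and the dashed line is the value with all 8 arrays. Npnt passes in each of the 8 fits, Tnr in 6, Abi3bp in 2 and Hapln4 in 1.

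Dim and bright genes of any kind shifted apart between the groups, which bears on small differences. All genes were split into 10 classes of about equal number by their mean signal, and the class of Tnr and Hapln4 (9.70 to 10.47) had a median difference of 0.0675 log2. Tnr lay above that median and Hapln4 below it. For Bcan and Ncan, in the brightest class, the class median was 0.065, and for Acan and Tnc, in the fourth class, -0.10. Npnt and Abi3bp fell in the sixth class, whose median was -0.015. All 10 genes were above the lower quartile of all clusters (6.80 to 6.94) on every array, and signal over background was not tested.

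**Figure D4:**
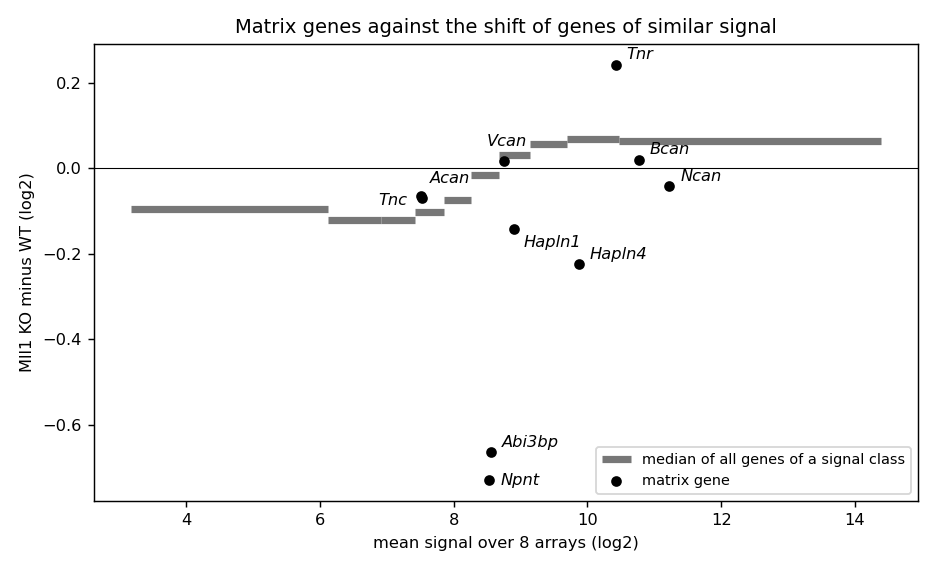
Difference between Mll1 KO and WT (log2, vertical axis) against mean signal over 8 arrays (log2, horizontal axis) for each matrix gene (points), with the median of all genes in each of 10 signal classes (grey bars, -0.12 to 0.0675). Acan, Tnc and Vcan lie near the bar of their class, and Npnt and Abi3bp lie far below theirs.

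The sequence before the start is shown for Npnt and Tnr, the genes whose calls ran in opposite directions with the lowest p. CpG sites were counted because Kmt2a binds unmethylated CpG DNA, and no binding was measured here. In the RefSeq windows of 250 bases before the start (GRCm38.p6), Npnt held 21 CG, a count reached by 16.3% of the 32851 windows, and Tnr held 2, a count that 29% of windows do not exceed. CG reads the same on both strands. The sequences follow, 5′ to 3′ on the gene's strand with CG in capitals, for Npnt at chr3:132950292-132950541 (minus strand, the first of 2 starts) and for Tnr at chr1:159523519-159523768 (plus strand).
Npnt: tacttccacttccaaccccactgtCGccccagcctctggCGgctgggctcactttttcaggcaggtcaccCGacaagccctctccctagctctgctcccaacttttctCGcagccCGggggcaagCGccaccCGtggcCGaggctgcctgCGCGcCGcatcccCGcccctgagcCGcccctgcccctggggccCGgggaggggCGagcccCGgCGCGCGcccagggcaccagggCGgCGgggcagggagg
Tnr: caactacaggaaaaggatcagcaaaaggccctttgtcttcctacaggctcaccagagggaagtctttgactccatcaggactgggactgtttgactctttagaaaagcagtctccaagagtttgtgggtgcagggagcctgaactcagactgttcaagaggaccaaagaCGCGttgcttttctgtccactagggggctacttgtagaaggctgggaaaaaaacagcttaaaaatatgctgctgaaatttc
Of the genes that did not pass, Acan held 26 CG, Bcan 16, Vcan 10, Tnc 8, Ncan 6 and Hapln1 2, against a median of 6 over all windows. Acan held more CG than Npnt, and Hapln1 as few as Tnr. Too few called genes had an entry to set the CG count against the calls, and a link was not tested. Hapln4 and Abi3bp had no entry.

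The other genes of net assembly were then examined by list. Hyaluronan synthases, hyaluronidases and hyaluronan receptors had no call among 11 tested genes (limma), with a median difference of -0.08. The synthase gene Has3 (-0.13 ± 0.05 log2, SE) and the receptor gene Hmmr (-0.18 ± 0.07) had the lowest p. After quantile normalization the list median was 0.0105, with Has3 at -0.026 and Hmmr at -0.11. Genes of any kind about as dim as Has3 had a median difference of -0.12 in the deposited values. The remaining link proteins and tenascins had no call among 4 genes, with Tnxb at -0.18 ± 0.06 and Tnn at -0.14 ± 0.06. These were -0.10 and -0.08 after quantile normalization. Without Mll1 KO replicate 4 Tnxb passed (limma, adjusted p = 0.0365). Receptors and ligands of nets, such as the chondroitin sulfate receptors of the LAR and Nogo families, had no call among 17 genes, with Ptprd at -0.18 ± 0.06 and Rtn4rl1 at 0.15 ± 0.06. Ptprd passed in 4 of 19 alternatives, Rtn4rl1 in 1 of 19 and Hmmr in 1 of 18 (limma, lowest adjusted p 0.0241, 0.0449 and 0.0451).

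Enzymes that build chondroitin sulfate had 1 rise among 20 tested genes, where 5.15% of all genes were called higher. The list median was 0.06, and 0.019 after quantile normalization. The gene that rose was Xylt1, the xylosyltransferase that starts the glycan chain on the core protein. It gave 10.82, 10.85, 10.81 and 10.73 on the arrays labelled Mll1 KO, against 10.53, 10.60, 10.58 and 10.56 on the WT arrays, without overlap. The difference was 0.235 ± 0.046 log2 (SE; limma, adjusted p = 0.014) and passed without any 1 array and after quantile normalization (0.17; limma, adjusted p = 0.0483). The sulfotransferase genes Chst3 (-0.20 without Mll1 KO replicate 4) and Chst13 (-0.31 without WT replicate 4), named after their values were seen, each passed in that fit alone among those with 1 array left out.

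Proteases that cut matrix and their inhibitors had 4 rises and 1 fall among 22 genes, where 5.15% of all genes were called higher and 5.69% lower. The 4 rises lay in signal classes 8 to 10, where 223 to 334 of 2396 to 2398 genes per class were called higher. Timp2, an inhibitor of metalloproteases, gave 11.37, 11.54, 11.44 and 11.71 on the arrays labelled Mll1 KO, against 10.92, 11.03, 10.93 and 11.06 on the WT arrays. It had the largest difference of the list, 0.53 ± 0.07 log2 (SE; limma, adjusted p = 0.00253), with no overlap, and passed without any 1 array. Serpine2, an inhibitor of thrombin and plasminogen activators, rose by 0.27 ± 0.05, Timp4 by 0.23 ± 0.05 and the membrane metalloprotease gene Mmp16 by 0.22 ± 0.05. Timp1 fell by 0.21 ± 0.06, a call lost in each of the 8 fits with 1 array left out and after quantile normalization. Timp4 and Mmp16 lost theirs without Mll1 KO replicate 2, Mll1 KO replicate 3 or WT replicate 1 and after quantile normalization, so the rises then numbered 2.

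Other proteoglycans had 3 rises and no fall among 28 genes, where 5.15% of all genes were called higher and 10.8% in either direction. The other syndecans and glypicans of the list, Sdc1 (-0.12 ± 0.07), Sdc4, Gpc1, Gpc2, Gpc3, Gpc5 and Gpc6 (-0.08 to 0.10), did not pass. Sdc2 rose by 0.26 ± 0.05 log2 (SE), the glypican gene Gpc4 by 0.26 ± 0.05 and Sdc3 by 0.21 ± 0.05 (limma, adjusted p 0.0155, 0.0157 and 0.0228). Sdc2 passed without any 1 array, Gpc4 did not pass without Mll1 KO replicate 3 (limma, adjusted p = 0.0558), and Sdc3 did not pass without Mll1 KO replicate 2, Mll1 KO replicate 3 or WT replicate 1 or after quantile normalization (limma, adjusted p = 0.0888).

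Integrins, the cell surface receptors to which nephronectin and other matrix proteins bind, had 2 rises and 2 falls among 18 genes. Of all genes, 5.15% were called higher and 5.69% lower. Itga4, the alpha4 subunit, gave 8.82, 8.93, 8.93 and 8.85 on the arrays labelled Mll1 KO, against 8.34, 8.38, 8.34 and 8.36 on the WT arrays. The groups lay far apart relative to their spread, and the difference of 0.53 ± 0.05 log2 (SE; limma, adjusted p = 0.000209) passed without any 1 array. Itgb5 rose by 0.27 ± 0.06, whereas Itga7 (-0.275 ± 0.064) and Itga10 (-0.24 ± 0.05) fell. Itga10 passed without any 1 array. Itgb5 lost its call without Mll1 KO replicate 1, 2 or 3 or WT replicate 1, and Itga7 without Mll1 KO replicate 1 or 2 or WT replicate 1 or 2. After quantile normalization the rises passed and the falls did not. Itga8, picked here after its values were seen because it encodes the nephronectin receptor subunit, was at -0.07 ± 0.06 and did not pass (limma, adjusted p = 0.412).

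Basement membrane and other matrix glycoproteins had no rise and 3 falls among 39 genes, where 5.69% of all genes were called lower. Reln, the secreted protein reelin, gave 9.38, 9.50, 9.34 and 9.28 on the arrays labelled Mll1 KO, against 9.82, 9.72, 9.79 and 9.86 on the WT arrays. It fell by 0.42 ± 0.06 log2 (SE; limma, adjusted p = 0.00253) and passed without any 1 array. Mfap4 (-0.27 ± 0.07) and the laminin gene Lama3 (-0.18 ± 0.05) fell as well, but neither call held after quantile normalization (limma, adjusted p = 0.153 and 0.216), and each passed in only 2 of the 8 fits with 1 array left out. Lgi2, named after its values were seen, passed after quantile normalization (-0.19), and Smoc2 (0.17) and Lgi1 (0.20) passed as rises and Egflam (-0.19) as a fall without WT replicate 4.

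**Figure D5:**
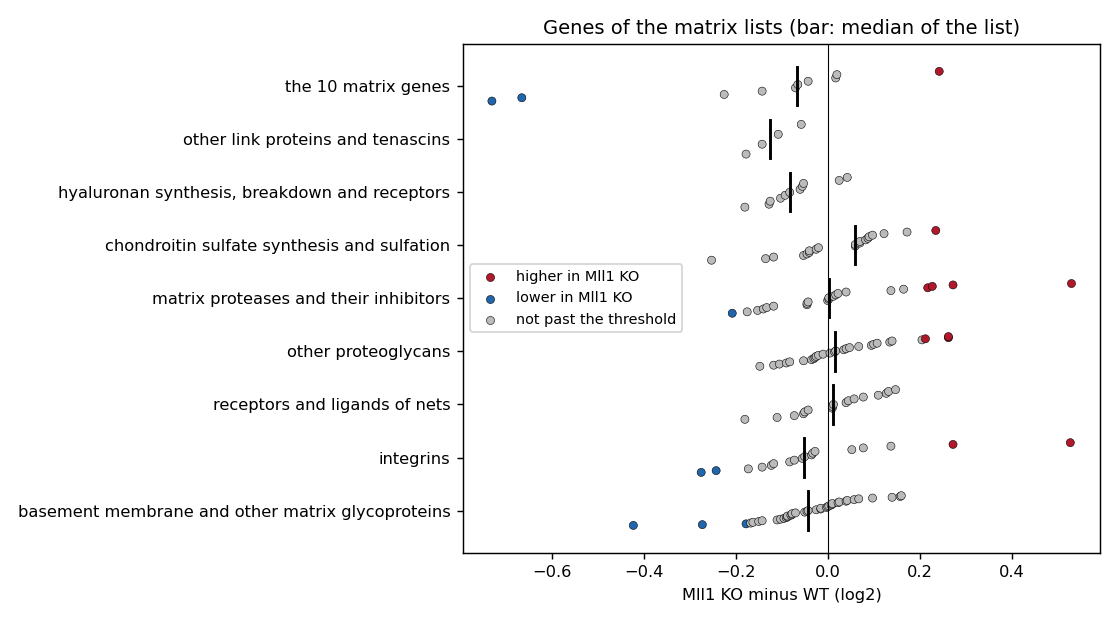
Difference between Mll1 KO and WT (log2, horizontal axis) of every tested gene in the 10 matrix genes and 8 related lists (rows), ordered within a row, with the list median as a bar; red genes were higher and blue genes lower in Mll1 KO by limma, grey ones did not pass. Npnt and Abi3bp lie lowest of all genes drawn, and Timp2 and Itga4 highest.

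Genes listed as markers of parvalbumin neurons, the cells that most cortical nets enclose, had 1 rise and 1 fall among 16 genes and a median of -0.05. Not all are particular to these cells, since Gad1 and Gad2 serve GABA neurons of any kind. Of all genes, 10.8% were called in either direction. Tac1 was the only gene of the list with a difference above 0, and all the others but Gad2 lay below 0, as did 58.9% of all genes. Of those below 0 only Gad1 passed. Tac1, a precursor of tachykinins, rose by 0.77 ± 0.12 log2 (SE; limma, adjusted p = 0.0052) and Gad1, which makes GABA, fell by 0.20 ± 0.05 (limma, adjusted p = 0.0349), while Gad2 was at 10.93 in both groups. With 1 array left out, the Gad1 call held only without WT replicate 3 or 4, and it held after quantile normalization (-0.25; limma, adjusted p = 0.0263). Pvalb, picked after its values were seen because it names the cells, gave 9.19, 8.92, 9.22 and 9.0 on the arrays labelled Mll1 KO and 9.18, 9.30, 9.46 and 9.13 on the WT arrays, which overlapped, with a difference of -0.185 ± 0.085 (limma, adjusted p = 0.153). The summed linear signal of the list, the risen Tac1 included, was 13585 to 14480 on the arrays labelled Mll1 KO and 13535 to 14316 on the WT arrays. The part of these cells in the values of Hapln4, Hapln1 and Acan was not tested.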

How the data were processed

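Total RNA of 8 prefrontal cortices was labelled with the Affymetrix WT PLUS kit and hybridised to 1 array per mouse, per the labels' protocols. The deposited values are log2 signals of 35556 transcript clusters, and Affymetrix Expression Console, RMA and Transcriptome Analysis Console 3.0 are named without role or order, per the submitters' processing notes. As a method, RMA corrects background, quantile normalizes probes and summarises each cluster. Genome build and annotation are not given in the sources used here. The authors' table holds bi-weight means, a signed fold (WT over knockout, a score that is negative where knockout is higher), a p-value of an ANOVA and its FDR form for 28944 clusters, per the file headers. It gave symbols: 25400 clusters had 1 gene, 1436 several and 2108 none, and clusters of several genes were left out.

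For each of 23983 genes the brightest cluster was fitted with limma 3.58.1 in R 4.3.3 (lmFit, eBayes), with genotype as the factor, no covariate and no filter on dim genes, and p was adjusted over all of them by Benjamini-Hochberg, and genes under 0.05 were called. Single genes and within-array pairs also had an exact two-sided permutation test over arrays. The fit was tested on simulated data with independent noise for each cluster. These held no shift with brightness and no array that stood apart, so the test does not cover either. Arrays carry no depth, and their number limits precision. No scan date or batch was given. Nothing beyond the stated count of mice says how the samples of a group were collected, so p-values measure the spread between these arrays.

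The members, the lists and the pairs were chosen with earlier results of these data known. Named genes were the 10 members, Kmt2a, per pathway list up to 6 passing genes of lowest p (otherwise 2), and per cell type list up to 3 passing genes plus the 2 brightest. Some genes that this rule names are not reported here. Of 253 list entries, 242 different genes were tested. Promoter windows came from RefSeq (GRCm38.p6). Alternatives covered normalization, centring, a dim filter, variance moderation, array weights, several clusters per gene, all clusters tested, a replicate block, thresholds and arrays left out.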

Additional observations from a re-analysis of the deposited data

Results flagged for a closer look

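Among the 53 genes named, 106 groups of 4 arrays were checked for a single array far from the rest, and 7 had one whose gap to the nearest array took more of the group's range than Dixon's limit for 4 values allows. Chance flags about 1 in 20 groups. For the matrix genes 2 of 20 groups were concerned, both through WT replicate 4: Npnt at 8.75, with the other WT arrays at 8.94 to 8.96, and Ncan at 11.11, with the others at 11.28 to 11.31. Without that array Npnt was at -0.78 and Ncan at -0.09. Mll1 KO replicate 1 stood apart for Timp4 at 9.62 (others 9.75 to 9.76) and for Itgb5 at 9.22 (others 9.15 to 9.16). Mll1 KO replicate 3 stood apart for Sdc2 at 9.11 (others 9.23 to 9.24) and for Aldoc, an astrocyte enzyme gene, at 13.17 (others 13.11 to 13.12). Mll1 KO replicate 4 stood apart for the complement gene C1qb at 10.28 (others 10.01 to 10.05). Mll1 KO replicate 1 at 7.51 for Abi3bp did not exceed that limit.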

How the results depend on the processing

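Of the 10 matrix genes, Npnt and Hapln1 kept their direction and side of the threshold in 19 alternatives each. The count of rises (Tnr alone, 1) became 0 after quantile normalization, without WT replicates 1 and 4 together and at a threshold of 0.01, and lay between 0 and 1 with 1 array left out. The count of falls (2) became 1 without variance moderation, with all clusters tested, with the replicate block and at a threshold of 0.01, became 3 (with Hapln4) without the dimmer genes and at a threshold of 0.1, and lay between 1 and 2 with 1 array left out. With the replicate block the fall of Abi3bp no longer passed (adjusted p = 0.0544). Same-numbered arrays come from different mice and their deviations correlated at -0.008 to 0.024. With no batch given and no other array pairs set beside them, these values cannot exclude a pairing. Hapln4 passed in 7 alternatives and Abi3bp in 5 of 19. Genes that did not pass changed sign in places. Quantile normalization and cyclic loess gave Acan 0.019 and 0.030, Bcan -0.041 and -0.053, and Tnc 0.014 and 0.024. Centring gave Ncan 0.019, Slc17a7 0.034, Camk2a 0.044, Mbp 0.059 and Slc1a2 0.034, and loess gave Vtn -0.00024. Array weights gave Vcan -0.019. Without WT replicates 1 and 4 Vcan was at -0.023 and Tnc at 0.065. With 1 array left out Vcan ran from -0.023 to 0.040, Mbp from -0.026 to 0.028, Ly6c1 from -0.135 to 0.062 and Ptgds from -0.148 to 0.0017. The cause of these changes was not tested. The share of calls that were rises depends on scaling, with 1236 rises and 1364 falls over all genes in the deposited values, 686 and 379 after quantile normalization, 2845 and 482 after centring, 746 and 437 with cyclic loess, 1514 and 465 without the dimmer genes, 552 and 384 without moderation, 1695 and 2469 with array weights, 494 and 348 with all clusters tested, 799 and 759 with the replicate block and 424 and 395 without WT replicates 1 and 4. With 1 array left out they ran from 398 to 1506 and from 313 to 1755, both lowest without Mll1 KO replicate 3.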

Other observations

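Other cell types that make or border the matrix gave few calls, where 10.8% of all genes were called in either direction. Astrocyte markers had no call among 10 genes (limma), with a median of 0.0062 log2, Aldoc at 0.14 ± 0.04 (SE) and Slc1a2 at -0.03 ± 0.04. Myelin markers had none among 10, with a median of -0.09 and Mbp at -0.0025 ± 0.0511, and endothelial and mural markers none among 12, with Vtn at 0.07 ± 0.08 and Ly6c1 at -0.06 ± 0.11. Microglia markers had none among 10 and a median of 0.09, with C1qb at 0.145 ± 0.068. Fibroblast markers of vessels and meninges, cells that make much interstitial matrix, had 1 rise among 12, Pdgfra, which the precursor list also holds, with Ptgds at -0.09 ± 0.09. Without WT replicate 4 the myelin gene Mog (-0.23) and Slc13a3 of the fibroblast list (-0.21), named after their values were seen, passed.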
